A study of Saccharomyces cerevisiae with 24 samples.

Results

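The Cdc42 polarity genes described here are 10 yeast genes chosen by name: CDC42, CDC24, BEM1, GIC1, GIC2, MSB3, BOI1, BOI2, STE20 and CLA4. All 10 were found in both deposited tables of normalised counts, among 5843 entries for haploid cells and 5730 for diploid cells, and all 10 passed the filter on low values in both. The 24 poly(A) RNA-seq libraries came from 8 strains of Saccharomyces cerevisiae, 3 libraries a strain, harvested in log phase in rich glucose medium (YPD) at 25 °C. Per the labels, 5 haploid strains had altered actins, namely N2, Ca and 3 written with brackets (Sc[Sp], Sc[At], Sc[Ca]), and were set against the haploid wild type ScNI. The diploid N2/Ca was set against the diploid wild type Sc/Sc. The strain names are not spelled out in the labels and are used here as names only. No treatment beyond the actin of the strain was labelled. No label says what separates the 3 libraries of a strain (cultures, clones or preparations), so p values rest only on the spread between these libraries.

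ACT1, the actin gene of wild-type budding yeast, was at 104.8 to 173 normalised counts in Sc[Ca], 9.43 to 31.6 in Sc[Sp] and 31.5 to 68.8 in Sc[At], against 18397 to 18549 in ScNI. It was at 10443 to 15183 in N2 and 8638 to 15314 in Ca, beside introduced genes of those names. In ScNI the entry named N2 was at 204 to 234 and that named Ca at 16.4 to 52.6. How reads were divided between ACT1 and these entries was not tested. Haploid libraries held 10228523 to 15403081 reads and diploid ones 12128284 to 15134814. Replicate 2 of each haploid strain stood apart by mating type: the summed level of 4 MATalpha genes was 42261 to 92519 in these 6 libraries and 687 to 1408 in the other 12, and that of 7 MATa genes 668 to 1382 and 16978 to 28828. Every haploid strain had this make-up, so it is balanced between strains. By mating type, replicate 2 thus came from other cells than the other replicates of its strain. Chromosomes VI and XIII stood above ScNI as a whole in all N2 and Ca libraries other than Ca replicate 3, and chromosome XI in Ca replicate 1. In the diploid N2/Ca, replicate 1 stood above Sc/Sc on chromosomes VI and XIII. None of the 10 genes lies on them. The chromosomes that carry the 10 genes had medians between −0.16 and 0.11 (log2 against the ScNI mean) in the 15 haploid libraries. All were below ScNI in Ca replicates 1 (−0.13 to −0.06) and 2 (−0.16 to −0.05) and in N2 replicates 1 (−0.07 to −0.02) and 3 (−0.12 to −0.01). The highest, 0.11, was in Sc[Sp] replicate 2. The part of this offset in small differences of the 10 genes was not tested.

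Cdc42 is a small GTPase that switches between a GDP-bound and a GTP-bound form and, as GTP-Cdc42, marks the site of the future bud. Its exchange factor Cdc24 loads it with GTP, and the scaffold Bem1 joins Cdc24 to GTP-Cdc42 and to the kinase Cla4, which closes a positive feedback that keeps a single site. GTP-Cdc42 then acts through effectors, the related proteins Gic1 and Gic2 and the p21-activated kinases Ste20 and Cla4, to direct actin cables, septins and secretion to the bud. Boi1 and Boi2, a pair of related proteins that bind Bem1 and Cdc42, work in secretion at the bud, and Msb3 is a GTPase-activating protein for Rab GTPases of the secretory pathway that was found as a suppressor of cdc24 mutants.

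Effectors recognise GTP-Cdc42 by a short stretch called CRIB. The coding DNA of 12 codons at the core of that stretch is shown for the members that hold it, because it is what the 4 effectors share by sequence. Bases run 5′ to 3′ on the coding strand, and capitals mark the codons of its conserved proline and of its pair of conserved histidines.
GIC1 (codons 126 to 137): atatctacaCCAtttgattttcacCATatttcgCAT
GIC2 (codons 134 to 145): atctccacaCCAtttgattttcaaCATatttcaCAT
STE20 (codons 337 to 348): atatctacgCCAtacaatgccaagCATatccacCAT
CLA4 (codons 184 to 195): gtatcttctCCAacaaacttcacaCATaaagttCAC
Of 6008 nuclear coding sequences in the R64 reference, 6 hold the pattern searched (isoleucine or valine, serine, any residue, proline, any 4 residues, histidine, any 2 residues, histidine). They are these 4 genes, SKM1, which encodes another p21-activated kinase, and MET17, an enzyme of sulfur amino acid synthesis that is not a known Cdc42 effector. GIC1 and GIC2 shared 32 of the 36 bases, CLA4 and SKM1 29, and STE20 and CLA4 19. No read of 50 bases, the read length, could match both genes of a pair exactly within their coding sequences: GIC1 and GIC2, BOI1 and BOI2, and STE20 and CLA4 shared 0 identical stretches of that length, and the longest identical stretches were 17, 14 and 15 bases.

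All 10 genes have 1 exon and overlap 0 other annotated genes in R64. CDC42 (YLR229C) lies on chromosome XII:604212-604787 on the minus strand, CDC24 (YAL041W) on I:62840-65404 on the plus strand, and BEM1 (YBR200W) on II:620872-622527 on the plus strand. GIC1 (YHR061C) lies on VIII:221534-222478 and GIC2 (YDR309C) on IV:1079048-1080199, both on the minus strand. STE20 (YHL007C) lies on VIII:95118-97937 on the minus strand and CLA4 (YNL298W) on XIV:68915-71443 on the plus strand. BOI1 (YBL085W) lies on II:63876-66818 on the plus strand, BOI2 (YER114C) on V:390590-393712 on the minus strand, and MSB3 (YNL293W) on XIV:80640-82541 on the plus strand.

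Per kilobase of coding sequence, the GTPase itself was the most abundant of the 10 transcripts in wild-type haploid cells. Its level was 4403 ± 120.0 normalised counts per kilobase in ScNI (SD, n = 3). GIC2 followed at 1012 ± 110.2, then BOI1 at 768 ± 14.0, STE20 at 718 ± 43.0, BEM1 at 656 ± 26.4, MSB3 at 551 ± 11.9, CDC24 at 471 ± 16.0, BOI2 at 412 ± 32.5 and CLA4 at 336 ± 22.7, with GIC1 lowest at 242 ± 20.6. The libraries of BOI1 and STE20, and those of STE20 and BEM1, overlapped on this scale, and no other neighbours did. In Sc/Sc, CDC42 again led at 4690.5 ± 810.2 and GIC1 was again last at 93.5 ± 2.56 per kilobase. Each table had its own normalisation, so levels are not compared across ploidy.

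Differences between strains were tested with limma on log2(normalised count + 1) over all 5808 haploid or 5727 diploid genes that passed the filter, and a gene is said to have risen or fallen where its Benjamini-Hochberg adjusted p was under 0.05. In Sc[Sp], 2 of the 10 genes changed, both upward, against 21% of all genes tested that changed. In Sc[At], 1 rose and 1 fell, while 15.3% of all genes changed. N2 had 2 that rose and 1 that fell, against 29.1% of all genes that changed, and Ca 1 that rose and 2 that fell, against 30.2%. In the diploid N2/Ca, 2 changed, both upward, against 14.4% of all genes. A test for any difference among the 6 haploid strains was passed by 5 of the 10 genes (GIC2, MSB3, BOI1, STE20 and CLA4) and by 60.6% of all genes. The counts thus lie near the shares of all genes. In bulk RNA, a different level per cell and a different share of cells that express a gene, such as cells with a bud, cannot be told apart. The median log2 difference of the 10 genes was −0.03 in Sc[Ca], −0.10 in Sc[Sp], 0.09 in Sc[At], 0.07 in N2 and 0.03 in Ca, each against ScNI, and 0.31 in N2/Ca against Sc/Sc, while that of all genes tested was between −0.02 and 0.01. Sc/Sc replicate 3 was the lowest Sc/Sc library for most of the 10 genes. Without it the difference was 0.42 for GIC2, −0.13 for STE20 and −0.11 for BOI2, against 0.86, 0.16 and 0.16 with it. CDC42 moved the other way, to −0.29 from −0.42. The N2/Ca median without that library was not taken, and 0.31 is not read as a shift of the whole set. The 5 haploid comparisons share the ScNI libraries and are not independent of each other.

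**Figure D1:**
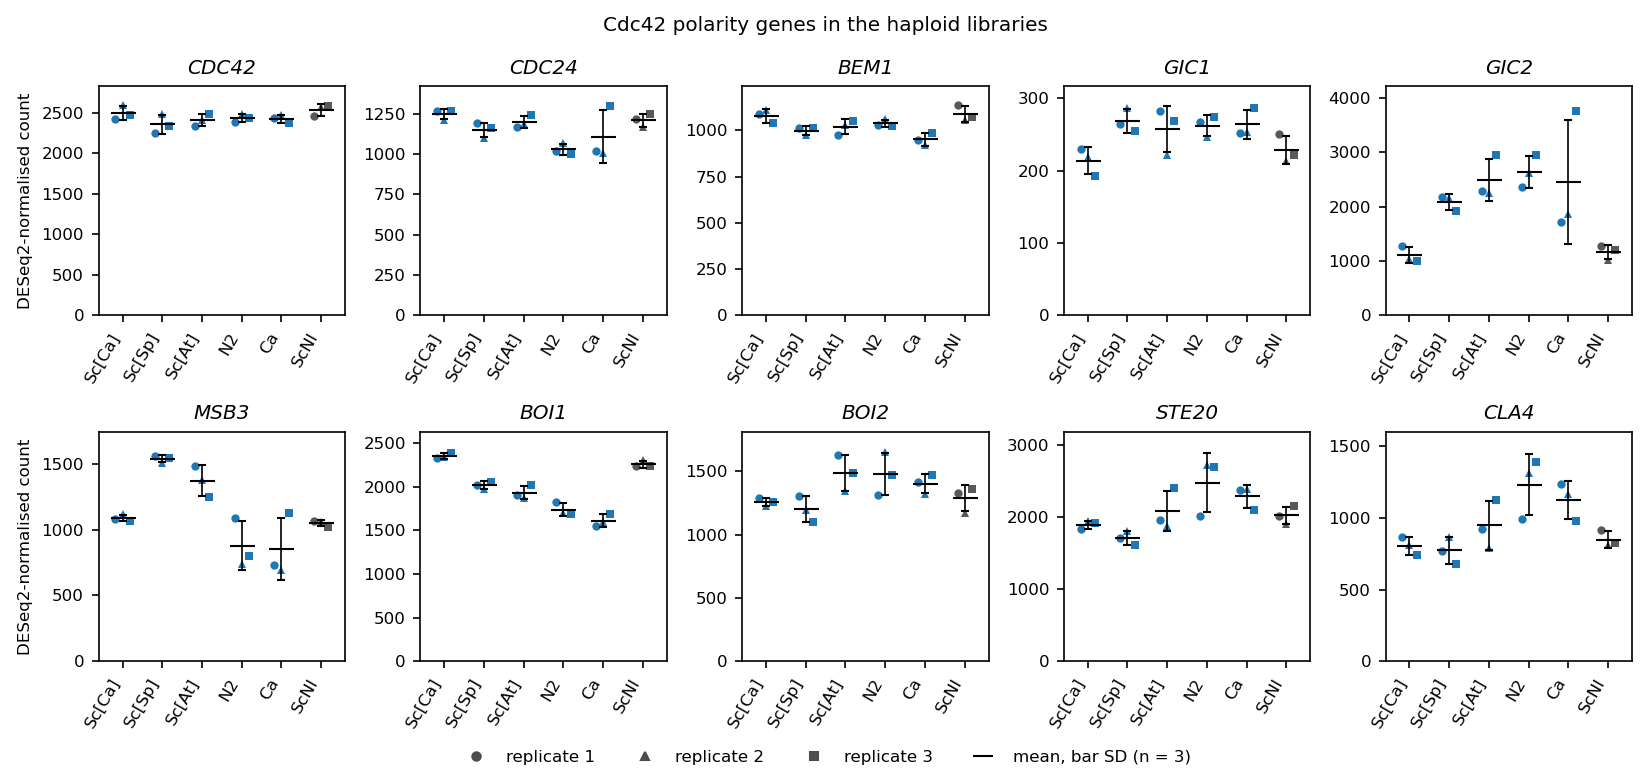
Normalised count of each of the 10 genes in the 18 haploid libraries, strains along the x axis, with replicates 1, 2 and 3 as circle, triangle and square and the mean with its SD (n = 3) in black. GIC2 stands above every ScNI library in all libraries of Sc[Sp], Sc[At], N2 and Ca, MSB3 is highest in Sc[Sp], BOI1 is lowest in Ca, and CDC42 is nearly level.

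Sc[Ca] showed no difference in the 10 genes that passed the test. None of the 10 changed by limma, and none had an unadjusted p under 0.05. None was called by edgeR's quasi-likelihood test or by DESeq2 on the recovered reads either, and 0.0172% of all genes were called by limma. In a fit of the 6 Sc[Ca] and ScNI libraries alone, 16.6% of all genes were called and again none of the 10. The largest difference was that of GIC1, at 229, 219 and 193 normalised counts in Sc[Ca], against 251, 214 and 222 in ScNI (log2 −0.10, SE 0.11, limma adjusted p = 0.95). BOI1 and MSB3 were higher in each Sc[Ca] library than in any ScNI library by small amounts (0.06 and 0.06 on the log2 scale), with adjusted p of 0.95 and 0.99 by limma; such separation upward was seen in 17.5% of all genes. The interval of the difference was widest for GIC2, from −0.55 to 0.40 on the log2 scale (95% confidence).

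No change of CDC42, the GTPase, passed the test in a haploid strain. It was at 2255, 2482 and 2343 normalised counts in the Sc[Sp] libraries, 2339, 2418 and 2491 in Sc[At], 2394, 2483 and 2439 in N2 and 2438, 2469.6 and 2375 in Ca, against 2456, 2571 and 2581 in ScNI. Each of these strains overlapped with ScNI, and the 95% intervals of the 5 log2 differences from ScNI lay between −0.23 and 0.10. CDC42 did not pass the test among the 6 haploid strains (limma adjusted p = 0.61). Within strains its level was higher in replicate 2, the MATalpha libraries, than in the mean of the other replicates in 6 of 6 haploid strains. The median difference was 0.04 on the log2 scale, in a range of 0.0026 to 0.11. Mating type and replicate number cannot be told apart, and the share of all genes with such a pattern was not counted.

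CDC24, the exchange factor, was at 1016, 1065 and 1002 normalised counts in N2 and 1018, 1006 and 1297 in Ca, against 1216, 1164 and 1245 in ScNI. All N2 libraries and Ca replicates 1 and 2 were below ScNI, and Ca replicate 3 was above it. The difference of N2 did not pass (log2 −0.23, SE 0.09, limma adjusted p = 0.051), although edgeR, DESeq2 and limma after TMM scaling each called it (adjusted p = 0.043, 0.027 and 0.047). Without Ca replicate 3, CDC24 fell by 0.26 on the log2 scale in Ca (limma adjusted p = 0.0051), against −0.14 with it (0.24). That library stood apart for CDC24, so its removal widens the difference, and 46.2% of all genes were called without it. With another library left out the limma adjusted p reached 0.58. In Sc[Sp] and Sc[At] it was at 1188, 1099 and 1158 and 1167, 1184 and 1238, and differed from ScNI by log2 −0.07 and −0.01 (limma adjusted p = 0.56 and 0.93).

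BEM1, the scaffold, fell in Ca. It had 948, 918 and 986 normalised counts in Ca, against 1136, 1053 and 1070.0 in ScNI, and the groups did not overlap. The change was small (log2 −0.19, SE 0.06, limma adjusted p = 0.027), and leaving out ScNI replicate 1 or 3 or Ca replicate 1 or 2, or fitting the 6 libraries of the 2 strains alone, took the adjusted p to between 0.059 and 0.15. In the other haploid strains BEM1 differed from ScNI by −0.12 in Sc[Sp], −0.09 in Sc[At] and −0.07 in N2 (log2), with limma adjusted p of 0.16, 0.32 and 0.44.

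Against ScNI, GIC2 had the largest changes of the 10 genes in the haploid strains in which it passed. It had 2181, 2170.0 and 1927 normalised counts in Sc[Sp], 2281, 2259 and 2946 in Sc[At], 2355, 2613 and 2944 in N2 and 1727, 1859 and 3770.0 in Ca, against 1275, 1026 and 1197 in ScNI. Every library of these 4 strains was above every ScNI library, and Ca replicate 3 stood far above the other Ca libraries. GIC2 rose in all 4, by log2 0.85 in Sc[Sp], 1.09 in Sc[At], 1.18 in N2 and 0.98 in Ca (SE 0.22 for each), with limma adjusted p of 0.018, 0.0068, 0.0020 and 0.0059. Without Ca replicate 3 the change in Ca was 0.63 (adjusted p = 0.029), and in a fit of the 6 Ca and ScNI libraries alone it did not pass (0.98, 0.082). In Sc[Sp] the adjusted p was between 0.036 and 0.067 with 1 library left out, with a log2 difference of 0.76 to 0.91. In Sc[Ca] it was at 1274, 1043 and 1003, within the range of ScNI apart from replicate 3. In 5 of 6 haploid strains the MATalpha replicate 2 was below the mean of the other replicates for GIC2, by a median of 0.16 over the 6 on the log2 scale.

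GIC1, its relative, did not pass the test in any haploid strain. It was at 264, 286 and 255 normalised counts in Sc[Sp], 282, 222 and 268 in Sc[At], 267, 247 and 273 in N2 and 252, 253 and 287 in Ca, against 251, 214 and 222 in ScNI. The libraries of Sc[Sp] and Ca were all above ScNI, and those of Sc[At] and N2 overlapped it. None of the 4 differences passed, at log2 0.23, 0.16, 0.20 and 0.20 in that order (limma adjusted p = 0.13, 0.33, 0.18 and 0.16). Per kilobase, the GIC2 transcript stood at 6.40 ± 0.330 times that of GIC1 in Sc[Sp], 8.00 ± 1.23 in Sc[At], 8.26 ± 0.883 in N2 and 7.48 ± 2.88 in Ca, against 4.17 ± 0.241 in ScNI (SD, n = 3 each). The ratio was 4.24 ± 0.328 in Sc[Ca]. The lowest ratio of the first 4 strains, 5.62 in Ca, was above the highest of ScNI, 4.42.

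GIC2 and MSB3 were the members that rose in more than 1 comparison with a wild type. The stretches from 300 to 51 bases before the start codon are shown for them and for GIC1, the relative of GIC2. They were read from R64 on the strand of the gene, and capitals mark motif matches.
GIC2 (IV:1080250-1080499, minus strand): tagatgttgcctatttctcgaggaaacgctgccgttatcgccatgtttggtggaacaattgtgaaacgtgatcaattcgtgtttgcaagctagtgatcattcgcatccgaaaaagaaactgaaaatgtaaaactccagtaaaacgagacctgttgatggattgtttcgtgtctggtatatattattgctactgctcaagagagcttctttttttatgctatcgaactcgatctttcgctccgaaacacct
GIC1 (VIII:222529-222778, minus strand): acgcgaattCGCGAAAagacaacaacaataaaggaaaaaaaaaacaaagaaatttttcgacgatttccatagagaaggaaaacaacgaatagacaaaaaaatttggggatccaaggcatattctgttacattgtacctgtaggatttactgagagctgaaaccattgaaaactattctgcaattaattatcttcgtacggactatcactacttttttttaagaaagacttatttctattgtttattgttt
MSB3 (XIV:80340-80589, plus strand): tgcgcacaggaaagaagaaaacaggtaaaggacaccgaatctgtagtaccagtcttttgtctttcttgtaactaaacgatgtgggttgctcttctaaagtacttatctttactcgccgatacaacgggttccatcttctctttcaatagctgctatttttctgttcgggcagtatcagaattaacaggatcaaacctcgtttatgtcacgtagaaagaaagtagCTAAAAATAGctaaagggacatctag
The motifs searched on both strands were 4: SCB (CGCGAAA) and MCB (ACGCGT), of late G1 transcription, PRE (TGAAACA), of the pheromone response, and the Rlm1 motif (CTA, any 4 bases, TAG), of the cell wall integrity pathway. GIC1 holds 1 SCB, present in 3.829% of 6007 such stretches, and MSB3 holds 1 Rlm1 motif, present in 4.495%. GIC2 holds none of the 4 in these exact letters. The SCB form CACGAAA was not searched in any stretch, and its reverse complement, TTTCGTG, is in the GIC2 stretch shown. GIC2 is therefore not said to lack an SCB. Among the other members, CDC42 holds 1 PRE (6.126%) and no other match was found; MCB occurs in 3.28% of the stretches.

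MSB3, the Rab GTPase-activating protein, rose in Sc[Sp]. It had 1561, 1509.6 and 1546 normalised counts in Sc[Sp] and 1482, 1381 and 1250.0 in Sc[At], against 1063, 1058 and 1021 in ScNI. All libraries of these 2 strains were above ScNI, and those of Sc[Sp] were above those of Sc[At]. MSB3 rose in Sc[Sp] (log2 0.56, SE 0.16, limma adjusted p = 0.023), and leaving out any 1 of the 6 libraries took the adjusted p to between 0.057 and 0.080 at log2 0.54 to 0.57. The difference of Sc[At] did not pass (log2 0.38, SE 0.16, limma adjusted p = 0.11) but did without the N2 and Ca libraries in the fit (0.38, adjusted p = 0.0013). That fit called 31.1% of all genes, against 15.3% with all libraries.

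In N2 and Ca the libraries of MSB3 divided. It was at 1091, 742 and 801 normalised counts in N2 and 734, 697 and 1124 in Ca. N2 replicate 1 and Ca replicate 3 lay above ScNI and the other 4 libraries below it. With all libraries neither difference passed (log2 −0.27, SE 0.16, limma adjusted p = 0.20 in N2; log2 −0.33, SE 0.16, limma adjusted p = 0.12 in Ca). Without N2 replicate 1, MSB3 fell in N2 by 0.44 on the log2 scale (limma adjusted p = 0.032), and without Ca replicate 3 it fell in Ca by 0.55 (0.0027). In these fits 37.4% and 46.2% of all genes were called. Each library left out here is one that stood apart for MSB3, so its removal widens the difference. With another library left out the limma adjusted p reached 0.55 in N2 and 0.37 in Ca.

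STE20 and CLA4, the p21-activated kinases, varied together. CLA4 was at 990.3, 1311 and 1393 normalised counts in N2 and 1239, 1165 and 979.8 in Ca, against 915, 810.0 and 824 in ScNI. Every N2 and Ca library was above ScNI, with N2 replicate 1 and Ca replicate 3 the lowest of their strains. CLA4 rose in N2 (log2 0.52, SE 0.15, limma adjusted p = 0.018), where leaving out ScNI replicate 2 or 3 or N2 replicate 2 or 3 took the adjusted p to between 0.056 and 0.091. The difference of Ca did not pass (log2 0.40, SE 0.15, limma adjusted p = 0.052), but passed with edgeR, DESeq2 and TMM scaling (0.042, 0.028 and 0.0497) and without Ca replicate 3 (0.50, 0.018). With another library left out the limma adjusted p in Ca reached 0.17.

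STE20 was at 2012, 2723 and 2702 normalised counts in N2 and 2371, 2397 and 2104 in Ca, against 2013, 1909 and 2151 in ScNI. N2 replicate 1 and Ca replicate 3 were within the range of ScNI and the other 4 libraries above it. Neither difference passed (log2 0.28, SE 0.12, limma adjusted p = 0.085 in N2; log2 0.18, SE 0.12, limma adjusted p = 0.26 in Ca). Without N2 replicate 1, the library that stood apart, STE20 rose in N2 by log2 0.42 (limma adjusted p = 0.0055). In that fit 37.4% of all genes were called. With another library left out the limma adjusted p in N2 reached 0.30. In Sc[Sp] it was at 1709, 1813 and 1607, below every ScNI library, a difference that did not pass (log2 −0.24, SE 0.12, limma adjusted p = 0.14) but did without the N2 and Ca libraries in the fit (−0.24, 0.046). CLA4 in Sc[Sp] and Sc[At] was at 772, 871 and 681 and 926, 789 and 1129, and overlapped with ScNI in both.

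**Figure D2:**
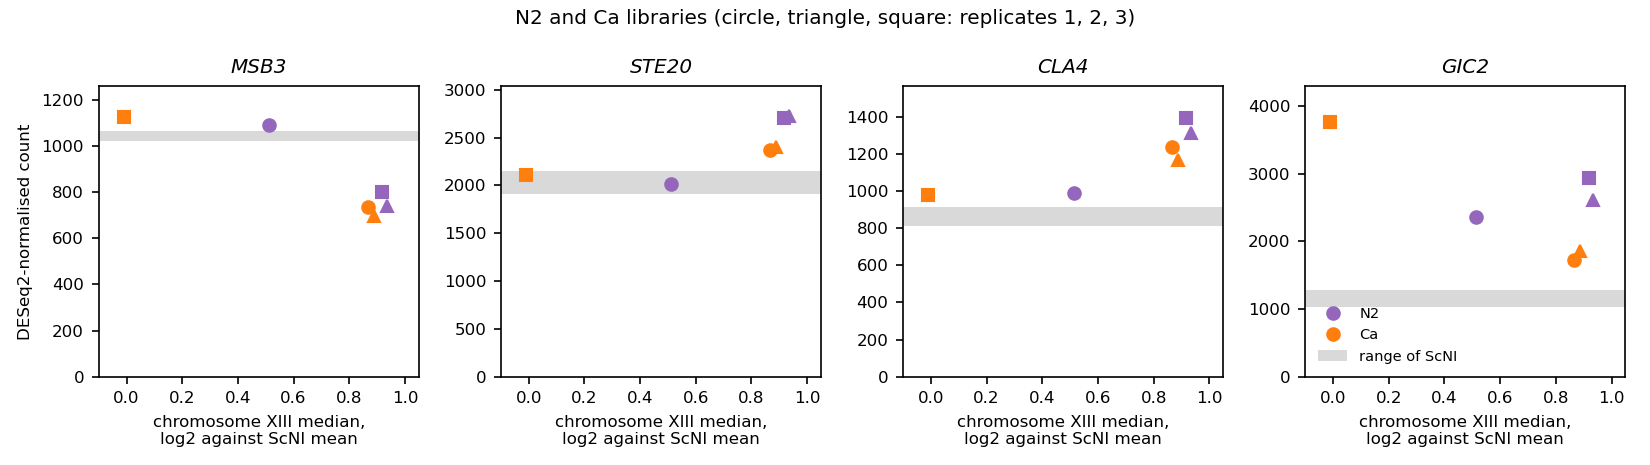
Normalised count of MSB3, STE20, CLA4 and GIC2 (y axis) in the 3 N2 and 3 Ca libraries against the median log2 difference of all chromosome XIII genes from the ScNI mean (x axis), with the ScNI range in grey. The libraries with the lowest chromosome XIII medians, Ca replicate 3 at −0.01 and N2 replicate 1 at 0.51, have the highest MSB3 and the lowest CLA4.

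For MSB3, STE20 and CLA4, the split of the N2 and Ca libraries ran with the level of chromosomes VI and XIII. The median of chromosome XIII was 0.51, 0.93 and 0.92 in N2 replicates 1, 2 and 3 and 0.87, 0.89 and −0.01 in Ca (log2 against the ScNI mean), and that of chromosome VI was 0.50, 0.92 and 0.89 in N2 and 0.88, 0.86 and 0.05 in Ca. The libraries with the 2 lowest medians, N2 replicate 1 and Ca replicate 3, were those that stood apart for MSB3, STE20 and CLA4. Within their strains they also had the lowest CDC42 and the highest BOI1. GIC2 did not divide in this way, since N2 replicate 1 was the lowest N2 library and Ca replicate 3 the highest Ca library. CDC24, BEM1, GIC1 and BOI2 did not divide in this way either. The pattern rests on 2 libraries, and the share of all genes that show it was not counted. The part of these chromosomes in the results was not tested.

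BOI1 fell in 3 haploid strains. It had 1551, 1596 and 1693 normalised counts in Ca, 1821, 1703 and 1693 in N2, 1902, 1874 and 2016 in Sc[At] and 2023, 1973 and 2059 in Sc[Sp], against 2237, 2308 and 2235 in ScNI. Every library of these 4 strains was below every ScNI library. The order of the strain means was Ca, N2, Sc[At], Sc[Sp], ScNI and Sc[Ca] from low to high, and among these neighbours only Sc[At] and Sc[Sp] had overlapping libraries. Ca and N2 were barely apart: the highest Ca library was at 1692.9 and the lowest N2 library at 1693.2. BOI1 did not pass the limma test between these strains. BOI1 fell by 0.49 on the log2 scale in Ca, 0.38 in N2 and 0.23 in Sc[At] (SE 0.06 for each), with limma adjusted p of 0.00012, 0.00062 and 0.022. With 1 library left out, the adjusted p in Sc[At] was between 0.017 and 0.088. In Sc[Sp] the difference did not pass (log2 −0.16, SE 0.06, limma adjusted p = 0.062); DESeq2 called it (−0.16, 0.0069), as did limma on the 6 libraries of the 2 strains (0.032) and without N2 and Ca libraries (0.024).

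BOI2, the relative of BOI1, did not pass against ScNI in any haploid strain. It was at 1308, 1197 and 1102 normalised counts in Sc[Sp], 1634, 1345 and 1486 in Sc[At], 1314, 1651 and 1475 in N2 and 1418, 1324 and 1470.2 in Ca, against 1330.4, 1172 and 1361 in ScNI. Each strain overlapped with ScNI, with log2 differences of −0.10, 0.21, 0.20 and 0.13 in that order (limma adjusted p = 0.49, 0.17, 0.15 and 0.35). Per kilobase, BOI1 was 1.22 ± 0.0593 times BOI2 in Ca, 1.26 ± 0.192 in N2, 1.38 ± 0.131 in Sc[At] and 1.79 ± 0.174 in Sc[Sp], against 1.87 ± 0.189 in ScNI. Ca, N2 and Sc[At] did not overlap with ScNI in this ratio, and Sc[Sp] did. For the kinases the ratio of STE20 to CLA4 was 1.81 ± 0.0627 in N2 and 1.83 ± 0.106 in Ca, against 2.14 ± 0.187 in ScNI, so their libraries did not overlap, though both transcripts had their highest haploid means in these 2 strains.

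**Figure D3:**
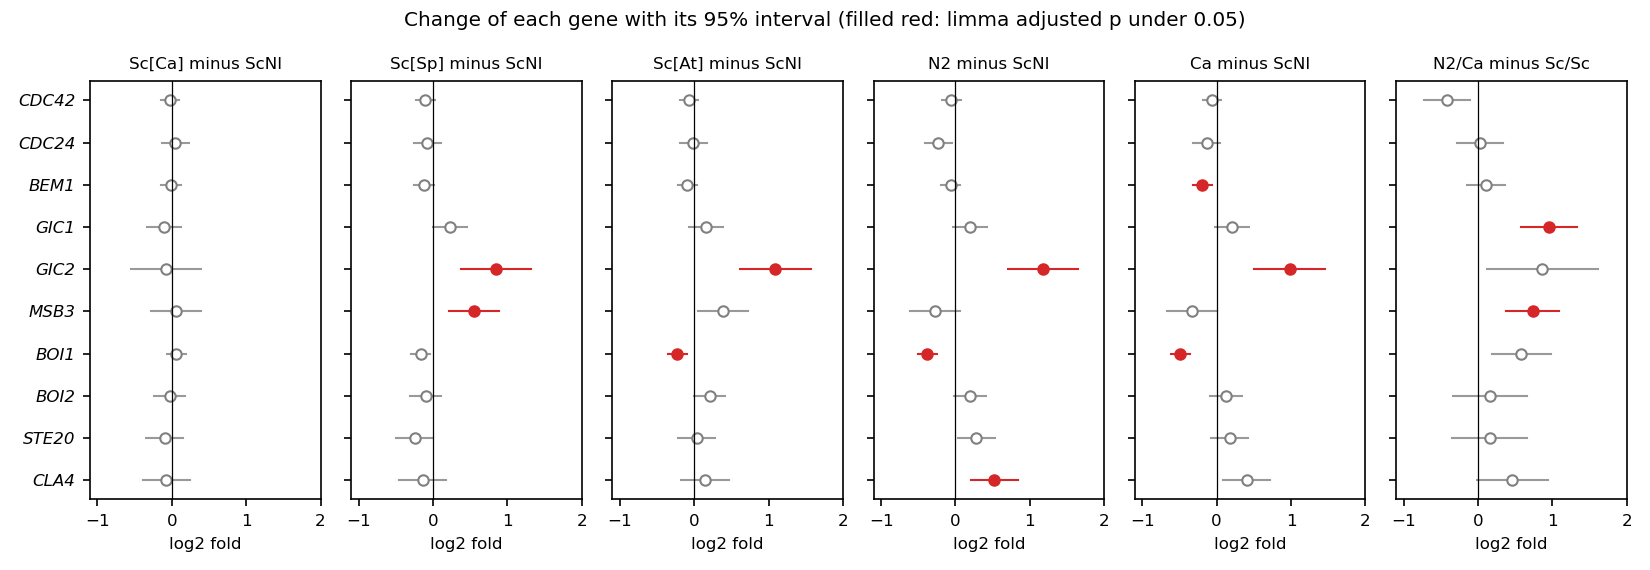
Log2 difference (x axis) of each of the 10 genes (rows) in the 5 haploid comparisons with ScNI and in N2/Ca against Sc/Sc, with its 95% interval; filled red points passed the limma test at adjusted p under 0.05. GIC2 passed in 4 haploid comparisons and BOI1 in 3 with the opposite sign, while no gene passed in Sc[Ca].

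The altered strains were also compared with each other. Between Ca and N2, 0 of the 10 genes changed by limma, edgeR or DESeq2 and 0 had an unadjusted p under 0.05, with 0.517% of all genes called by limma. The widest interval was again that of GIC2, from −0.67 to 0.28 on the log2 scale. Between Sc[Sp] and Sc[At], 0 changed by limma, against 13.5% of all genes, and 2 had an unadjusted p under 0.05. These were BOI2, at 1308, 1197 and 1102 in Sc[Sp] and 1634, 1345 and 1486 in Sc[At] (log2 −0.31, SE 0.10, limma adjusted p = 0.052), and STE20 (log2 −0.28, SE 0.12, limma adjusted p = 0.12). BOI2 was lower in Sc[Sp] by edgeR (adjusted p = 0.046) and DESeq2 (0.021), and without the N2 and Ca libraries in the limma fit both BOI2 (0.021) and STE20 (0.034) were lower.

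Differences of Ca and N2 from Sc[Sp] and Sc[At], chosen after the data had been seen, were tested in the same fit. From Sc[Sp], Ca differed in 4 of the 10 genes and N2 in 5, against 46.8% of all genes in each. MSB3 was lower in Ca (log2 −0.89, SE 0.16, limma adjusted p = 0.00050) and in N2 (log2 −0.83, SE 0.16, limma adjusted p = 0.0010) than in Sc[Sp], and no library of Ca or N2 reached those of Sc[Sp]. STE20 was higher in Ca (log2 0.42, SE 0.12, limma adjusted p = 0.0089) and in N2 (log2 0.52, SE 0.12, limma adjusted p = 0.0028), as was CLA4 in Ca (log2 0.54, SE 0.15, limma adjusted p = 0.0084) and in N2 (log2 0.66, SE 0.15, limma adjusted p = 0.0030). From Sc[At], Ca differed in MSB3 and BOI1, 2 of the 10 genes against 10.8% of all genes, and N2 in MSB3 alone, 1 of 10 against 17.1%. MSB3 was lower in Ca (log2 −0.72, SE 0.16, limma adjusted p = 0.033) and in N2 (log2 −0.66, SE 0.16, limma adjusted p = 0.015) than in Sc[At].

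In the diploid N2/Ca, GIC1 and MSB3 rose. GIC1 had 180.5, 186 and 151 normalised counts in N2/Ca, against 91.1, 86.7 and 87.2 in Sc/Sc (log2 0.95, SE 0.16, limma adjusted p = 0.0085). MSB3 had 894, 868 and 841 in N2/Ca, against 491, 655 and 439.9 in Sc/Sc (log2 0.73, SE 0.15, limma adjusted p = 0.019). Neither gene overlapped between the strains. The call of MSB3 was lost without any 1 of the N2/Ca libraries or without Sc/Sc replicate 1 (limma adjusted p between 0.056 and 0.075), and that of GIC1 without N2/Ca replicate 2 (0.90, 0.059). N2/Ca replicate 1 stood apart by its medians of chromosomes VI and XIII, 0.41 and 0.46 on the log2 scale against the Sc/Sc mean, beside 0.04 or less in the other N2/Ca libraries. Without it GIC1 still rose (0.92, limma adjusted p = 0.040) and MSB3 did not pass (0.71, 0.071).

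**Figure D4:**
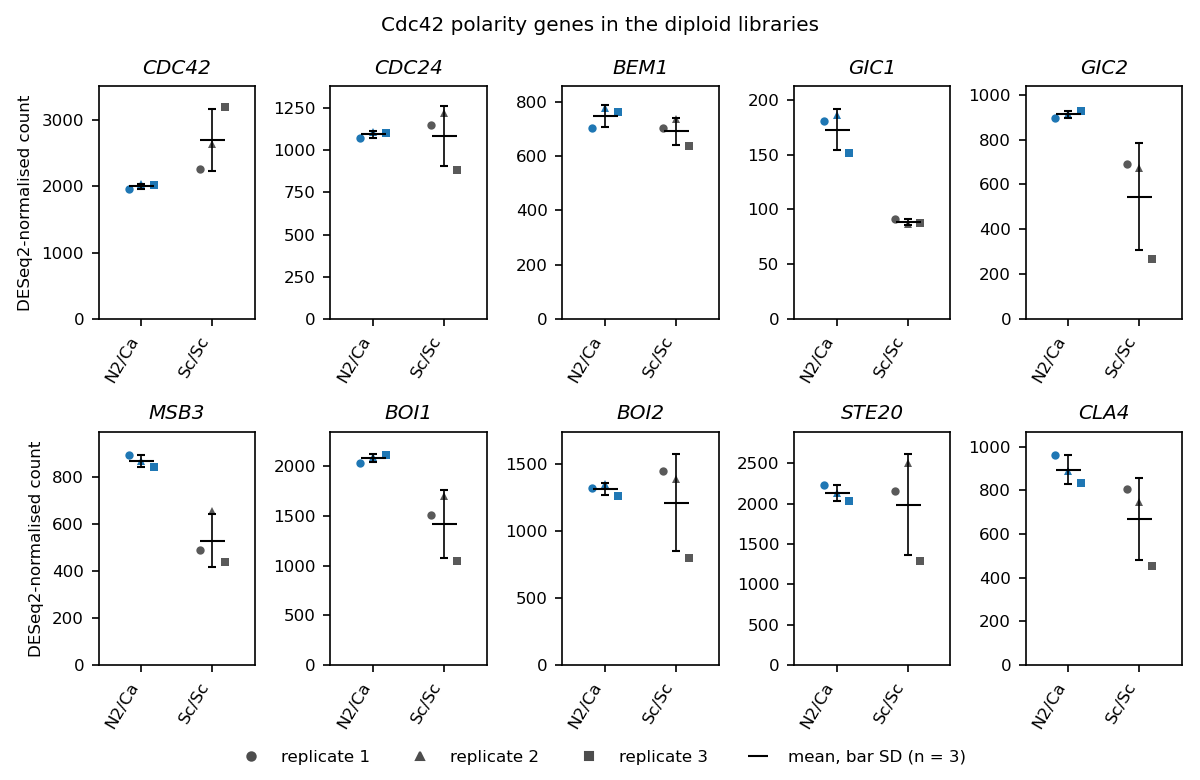
Normalised count of each of the 10 genes in the 3 N2/Ca libraries (left) and the 3 Sc/Sc libraries (right), with the mean and SD (n = 3) in black. GIC1, GIC2, MSB3, BOI1 and CLA4 are higher in every N2/Ca library than in every Sc/Sc library, CDC42 is lower, and Sc/Sc replicate 3 (square) is the lowest Sc/Sc library for CDC24, BEM1, GIC2, MSB3, BOI1, BOI2, STE20 and CLA4.

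GIC2 was at 896, 915 and 928 normalised counts in N2/Ca, against 693, 672 and 269.6 in Sc/Sc, and BOI1 at 2039, 2092 and 2115, against 1513, 1706 and 1045. Both were above Sc/Sc in every N2/Ca library, as were GIC1, MSB3 and CLA4 (5 of the 10 genes, against 22.4% of all genes tested), and in both Sc/Sc replicate 3 lay far below the other Sc/Sc libraries. Neither passed (log2 0.86, SE 0.32, limma adjusted p = 0.11 for GIC2; log2 0.58, SE 0.17, limma adjusted p = 0.057 for BOI1). Without Sc/Sc replicate 3 both rose, by log2 0.42 for GIC2 (0.011) and 0.37 for BOI1 (0.017). That library stood apart for both, and 23.8% of all genes were called without it. With another library left out the limma adjusted p reached 0.23 for GIC2 and 0.17 for BOI1. DESeq2 also called BOI1 (0.55, 0.022).

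CDC42 was at 1961, 2036 and 2018 normalised counts in N2/Ca, against 2267, 2644 and 3195 in Sc/Sc. Every N2/Ca library was below Sc/Sc, whose replicate 3 was the highest. The difference did not pass (log2 −0.42, SE 0.13, limma adjusted p = 0.071), but did by DESeq2 (−0.43, 0.028) and without Sc/Sc replicate 1 (−0.54, 0.039). With another library left out the limma adjusted p reached 0.19. CLA4 was at 964, 890.5 and 833, against 805, 748 and 455 in Sc/Sc (log2 0.46, SE 0.21, limma adjusted p = 0.16). STE20 was at 2231, 2136 and 2028, against 2158, 2504 and 1288, and BOI2 at 1323, 1347 and 1260.1, against 1449, 1387 and 797, and in both Sc/Sc replicate 3 lay below all other diploid libraries. CDC24 (0.03 on the log2 scale, limma adjusted p = 0.91) and BEM1 (0.11, 0.51) overlapped between the strains. The summed level of 7 haploid-specific genes was 693 to 730.4 normalised counts in N2/Ca and 607 to 770.3 in Sc/Sc, beside 7681 to 9961 in the haploid libraries on the scale of their own table. That of 5 MATa genes was 660 to 1010 in N2/Ca and 459 to 535 in Sc/Sc, without overlap. That of 3 MATalpha genes was 568 to 641 in N2/Ca and 348 to 634 in Sc/Sc, with overlap.

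Another 28 genes of the Cdc42 circuit were counted for context, among them GTPase-activating proteins, bud-site and polarisome genes. None changed in Sc[Ca] or between Ca and N2; at an unadjusted p under 0.05 these counts were 1 and 0. The shares of all genes called were 0.0172% and 0.517%. In Sc[Sp], 5 rose and 3 fell, against 21% of all genes that changed; the largest changes were those of FAR1, an adaptor of the pheromone response that brings Cdc24 to the membrane (log2 0.77, limma adjusted p = 0.0076), MSB2, a mucin-like sensor upstream of Cdc42 (0.72, 0.020), SKM1 (0.58, 0.014) and AXL2, an axial bud-site landmark (0.56, 0.027). In Sc[At], 6 rose and 1 fell, against 15.3% of all genes, led by MSB2 (1.06), AXL2 (0.93), FAR1 (0.88) and BUD3 (0.55), another axial landmark (adjusted p = 0.0046, 0.0042, 0.0052 and 0.0070).

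In N2, 9 of the 28 rose and 3 fell, against 29.1% of all genes that changed. The largest changes were those of ZDS2 (1.27 on the log2 scale), MSB2 (1.02), ZDS1 (0.69) and AXL2 (0.65), with limma adjusted p of 0.00044, 0.0022, 0.025 and 0.010. In Ca, 6 rose and 3 fell, against 30.2% of all genes, led by ZDS2 (1.16), MSB2 (0.66), AXL2 (0.61) and MSB1 (0.61), found as a suppressor of cdc24 mutants, with adjusted p of 0.00098, 0.020, 0.014 and 0.0059. ZDS1 and ZDS2, regulators related to each other, lie on chromosome XIII, whose median stood at 0.51 to 0.93 in N2 and −0.01 to 0.89 in Ca; the part of the chromosome in their change was not tested. Between Sc[Sp] and Sc[At], 1 rose and 6 fell, against 13.5% of all genes, led by lower MSB1 (−0.59), SPA2 (−0.53), a polarisome scaffold, BUD3 (−0.45) and PEA2 (−0.41), SPA2's partner, in Sc[Sp] (adjusted p = 0.015, 0.0083, 0.021 and 0.021).

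In N2/Ca, 5 of the 28 rose and none fell, against 14.4% of all genes that changed. FAR1 rose by log2 1.20 (limma adjusted p = 0.0089), SKM1 by 1.06 (0.00096), MSB2 by 0.99 (0.046) and RGA2, a GTPase-activating protein for Cdc42, by 0.69 (0.024). The median difference of the 28 genes was 0.03 in Sc[Sp], 0.11 in Sc[At], 0.10 in N2 and 0.06 in Ca against ScNI and 0.15 in N2/Ca against Sc/Sc, beside −0.02 to 0.01 for all genes tested.

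Across the 18 haploid libraries, which share their strains and 6 strain means, STE20 and CLA4 followed each other most closely of all pairs of members (Pearson r = 0.93 of log2 values), followed by GIC1 and GIC2 (0.81). MSB3 ran against STE20 (−0.80) and BOI1 against CLA4 (−0.74) and GIC2 (−0.73). The 3 genes most like GIC2 among all tested were MSB2 (r = 0.98), WSC2 (0.97), which encodes a cell wall stress sensor, and SKT5 (0.96), an activator of chitin synthase. For MSB3 they were ATG22 (0.97), GPC1 (0.97) and YJL132W (0.97), for BOI1 SKO1 (0.98), GYP6 (0.97) and CAB1 (0.97), for STE20 TRM5 (0.98), PRP43 (0.97) and RAT1 (0.97), and for CLA4 PHO90 (0.97), NUP1 (0.97) and GDA1 (0.97). These values describe these libraries and were not tested.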

How the data were processed

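Per the labels' protocols, a stranded Illumina kit took 500 ng of RNA a library and reads were single, of 50 bases. Per the submitters' processing notes, the tools were HISAT2 2.2.1, Trimmomatic 0.39, FastQC 0.11.9, bcl2fastq 2.20.0.422 and DESeq2 1.28.0, on build R64. The sources used here name no counting tool and no strand setting. The deposited values are a signal, DESeq2-normalised counts, in a haploid table of 18 libraries and a diploid table of 6, each normalised by the authors on its own. All values were whole multiples of a library's step, so that 100% gave whole reads within 0.001 reads, and these recovered counts give the depth and feed edgeR 4.0.16 and DESeq2 1.42.0 as other tests. Of the columns, 0 were left unused; those headed N19_Ca were taken as N2/Ca, the labelled diploid with Ca, since no label explains the name.

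Genes with a mean of at least 10 in a table were tested with limma 3.58.1 (mean-variance trend, R 4.3.3) on log2(value + 1), all 18 haploid libraries in one fit and the 6 diploid libraries in another, without the introduced actin entries, and p values were adjusted by Benjamini-Hochberg over all genes tested. On this scale a log2 difference understates that of genes with few reads; the 10 genes had 75 to 4013 reads in each library. There were 8 comparisons and a test among the haploid strains, and 4 pairs were added after the data were seen. The members and lists were chosen with earlier results of these data known. The named genes are all 10 members, at most 4 other circuit genes a comparison with the largest change among those that passed, and the 3 genes most correlated with each member that passed the test among strains. Promoters and coding stretches were read by coordinates from the R64 genome of RefSeq. Other settings were pseudocounts of 0.5 and 5, no filter, edgeR, DESeq2, TMM scaling, a replicate block, fits of fewer strains and leaving out each replicate. Same-numbered libraries deviated together from their strain means in Sc[Ca], Sc[Sp], Sc[At] and N2 against ScNI (lowest r over the 3 pairs 0.50, 0.39, 0.40 and 0.31). The same was seen in Sc[Sp] against Sc[At] (0.32). Replicate 2 is the MATalpha library of every haploid strain, and mating type alone can give such r. A shared mating type and a shared culture or batch therefore cannot be told apart.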

Additional observations from a re-analysis of the deposited data

Results flagged for a closer look

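Several of the 10 genes differed directly between Ca or N2 and Sc[Sp] or Sc[At], that is, between strains set against the same ScNI libraries (limma on all 18 haploid libraries, pairs chosen after the data were seen). MSB3 was lower in Ca than in Sc[Sp] by a log2 difference of −0.89 (adjusted p = 0.00050) and than in Sc[At] by −0.72 (0.033), and lower in N2 than in Sc[Sp] by −0.83 (0.0010) and than in Sc[At] by −0.66 (0.015). BOI1 was lower in Ca than in Sc[Sp] (−0.32, adjusted p = 0.00065) and Sc[At] (−0.26, 0.035) and in N2 than in Sc[Sp] (−0.22, 0.0095). The kinases were higher than in Sc[Sp]: STE20 in Ca (0.42, 0.0089) and N2 (0.52, 0.0028), and CLA4 in Ca (0.54, 0.0084) and N2 (0.66, 0.0030). BOI2 was higher in N2 than in Sc[Sp] (0.30, 0.024). Of all genes, 46.8% differed between Ca and Sc[Sp], 46.8% between N2 and Sc[Sp], 10.8% between Ca and Sc[At] and 17.1% between N2 and Sc[At]. The counts of the 10 genes lie near these shares, so nothing particular to the 10 genes is read from them.

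BOI1 lay on opposite sides of the wild type in haploid and diploid cells. All N2 libraries were below ScNI (log2 −0.38, limma adjusted p = 0.00062), as were all Ca libraries (−0.49, 0.00012), while all N2/Ca libraries were above Sc/Sc (0.58, 0.057). The diploid difference did not pass, and its size was 0.37 without Sc/Sc replicate 3 (limma adjusted p = 0.017). With another library left out the limma adjusted p reached 0.17. BOI1 was picked by this separation of libraries, and the share of all genes that show it was not counted. The difference between the haploid and diploid contrasts was not tested, since the tables were normalised separately.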

How the results depend on the processing

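Over the 10 genes, the 8 comparisons and their other settings, 1086 of 1150 values stayed on their side of the threshold, 30 lost the call and 34 gained it. Of those that passed, 0 turned their sign, and 21 values that passed neither way did. Of the 10 genes, 2 changed in Sc[Sp] (21% of all genes) but 4 in the fit of the 6 libraries of the 2 strains (47.2%) and 4 without N2 and Ca libraries (41.7%), with BOI1 and STE20 added. In Sc[At], 2 changed (15.3%) but 3 in the fit of 6 libraries (19.7%) and 3 without N2 and Ca libraries (31.1%), with MSB3 added. In N2, 3 changed (29.1%) but 5 by DESeq2 (34.1%), and in Ca 3 (30.2%) but 1 in the fit of 6 libraries (12.8%). Between Sc[Sp] and Sc[At] 0 changed (13.5%) but 1 by edgeR (14.1%), 1 by DESeq2 (19.4%) and 2 without N2 and Ca libraries (31.4%). In the test among haploid strains 5 passed (60.6%) but 9 by DESeq2 (71.0%). With each library left out in turn the count was 0 to 1 in Sc[Sp], 1 to 2 in Sc[At], 2 to 6 in N2, 2 to 6 in Ca, 0 to 1 for Sc[Sp] against Sc[At] and 0 to 4 in N2/Ca, and the highest counts of N2 and Ca came without N2 replicate 1 and Ca replicate 3, those of N2/Ca without Sc/Sc replicate 3. The share of all genes called in these fits also moved, over 7.54% to 13.8%, 5.27% to 17.0%, 14.4% to 37.4%, 18% to 46.2%, 3.2% to 15.7% and 4.65% to 23.8% in the same order. In N2/Ca, 2 changed (14.4%), but 4 by DESeq2 (23.5%) and 4 with a replicate block (15.4%; GIC2 and BOI1 added, adjusted p = 0.049 and 0.039); the block changed no other call. Same-numbered libraries did not all deviate together in N2/Ca, Ca and Ca against N2 (lowest r −0.07, 0.06 and −0.31). There, 2, 3 and 2 of 6 libraries correlated best with their own number. Fewer samples were fitted wherever a library was left out. Otherwise the cause of these shifts was not tested. Of the 10 genes, the count for Sc[Ca] and for Ca against N2 was 0 in all settings run.

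GIC1 had the fewest reads of the 10 genes, 194 to 306 in a haploid library and 75 to 212 in a diploid library.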

Other observations

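In the MATalpha libraries (replicate 2), 3 further members were lower than in the mean of the other replicates in 5 of 6 haploid strains, CDC24, BOI1 and BOI2, with median log2 differences of −0.07, −0.03 and −0.09; GIC1 was lower in 4 of 6 (−0.11), and BEM1 and MSB3 in 3 of 6 (−0.02 and −0.01). STE20 and CLA4 were higher in 4 of 6 (0.08 and 0.05). Here too, mating type and replicate number cannot be told apart, and no share of all genes was counted.

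Among diploids, GIC2 was 4.37 ± 0.566 times GIC1 per kilobase in N2/Ca and 5.04 ± 2.17 in Sc/Sc, and BOI1 was 1.69 ± 0.0806 times BOI2 in N2/Ca and 1.27 ± 0.146 in Sc/Sc (SD, n = 3 each). The GIC ratio overlapped between the diploid strains and the BOI ratio did not.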
